A study of Homo sapiens with 2 samples.

Results

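C4-2 is a prostate cancer line that came from LNCaP and grows without androgen. Its accessible chromatin was profiled by ATAC-seq, which uses a transposase to insert adapters where DNA is exposed. One library carried a control shRNA (the reference) and 1 carried an shRNA against WHSC1 (NSD2), a histone H3 methyltransferase, and all cells were grown in the same serum-containing medium. The authors called broad peaks (GRCh38) separately in each library. Described here are the peaks that lie inside a protein-coding gene and more than 3 kb from every end of any protein-coding gene on chromosomes 1 to 22 and X, called gene-body peaks below. There were 325 of them among 1935 control peaks (16.8%, interval 15.2 to 18.5%) and 425 among 2327 knockdown peaks (18.3%, interval 16.7 to 19.9%). They were found by position in the RefSeq gene table, and no peak value was used. Intervals are 95% exact (Clopper-Pearson for shares) and reflect counting error alone. With 1 library per group there is no spread between replicates, no test was made between groups, and each statement compares these 2 libraries. Read depth is unknown, so the lack of a peak is the lack of a call and not measured closed chromatin.

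Accessible sites inside genes are commonly of a few kinds: alternative promoters, from which shorter transcripts of the gene start, promoters of genes nested in an intron, and enhancers or other protein-bound elements in introns. Promoters of broadly expressed genes often lie in CpG islands, stretches rich in C followed by G, whereas intronic enhancers usually do not. The methyl mark that NSD2 places is known for covering wide stretches of gene bodies and of DNA between genes. The targeted gene itself held no such peak in either library: NSD2 spans 110.8 kb of chromosome 4 (1871393 to 1982192), of which 104.8 kb lies beyond 3 kb from a gene end.

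The gene table gives 1 outer start and 1 outer end per gene, but RefSeq promoter windows (250 bases before to 50 bases after a transcript's start, GRCh38.p14) also list inner starts. The sequences show the 250 bases before such inner starts, written 5′ to 3′ on the gene's strand with each CpG in capitals. The first 3 lay under a peak of both libraries, CLCN3 and ABCD3 under a control peak alone and ASNS under a knockdown peak alone, and each was chosen after the values were seen as the strongest of its kind with at least 100 bases covered by the peak. They run from chr13:75537842-75538091 on the minus strand (COMMD6, of a family that works in endosomal sorting), chr10:1049120-1049369 on the minus strand (IDI1, the isopentenyl diphosphate isomerase of sterol synthesis) and chr2:162343882-162344131 on the plus strand (GCA, the calcium-binding protein grancalcin). The others are chr4:169659990-169660239, plus (CLCN3, a chloride-proton exchanger), chr1:94418139-94418388, plus (ABCD3, a peroxisomal transporter), and chr7:97872409-97872658, minus (ASNS, asparagine synthetase).
COMMD6: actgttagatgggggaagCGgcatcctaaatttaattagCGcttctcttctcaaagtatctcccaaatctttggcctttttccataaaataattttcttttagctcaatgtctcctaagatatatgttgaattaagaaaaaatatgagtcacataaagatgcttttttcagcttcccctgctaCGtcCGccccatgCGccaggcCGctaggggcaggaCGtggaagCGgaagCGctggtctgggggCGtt
IDI1: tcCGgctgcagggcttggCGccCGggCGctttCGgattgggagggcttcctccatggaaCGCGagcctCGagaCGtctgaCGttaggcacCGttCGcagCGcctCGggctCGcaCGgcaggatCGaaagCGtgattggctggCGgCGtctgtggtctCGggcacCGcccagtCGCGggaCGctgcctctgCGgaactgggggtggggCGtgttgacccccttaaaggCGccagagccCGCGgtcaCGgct
GCA: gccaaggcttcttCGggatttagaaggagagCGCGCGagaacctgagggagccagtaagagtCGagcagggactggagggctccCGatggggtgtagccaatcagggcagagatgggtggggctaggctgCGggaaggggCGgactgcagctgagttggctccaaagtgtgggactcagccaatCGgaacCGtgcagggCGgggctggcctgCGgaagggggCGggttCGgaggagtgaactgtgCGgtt
CLCN3: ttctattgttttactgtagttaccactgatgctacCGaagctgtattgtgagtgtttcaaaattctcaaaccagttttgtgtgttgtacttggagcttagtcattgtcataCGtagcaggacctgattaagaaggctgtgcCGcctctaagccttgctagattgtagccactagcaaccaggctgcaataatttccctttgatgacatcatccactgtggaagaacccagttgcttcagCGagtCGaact
ABCD3: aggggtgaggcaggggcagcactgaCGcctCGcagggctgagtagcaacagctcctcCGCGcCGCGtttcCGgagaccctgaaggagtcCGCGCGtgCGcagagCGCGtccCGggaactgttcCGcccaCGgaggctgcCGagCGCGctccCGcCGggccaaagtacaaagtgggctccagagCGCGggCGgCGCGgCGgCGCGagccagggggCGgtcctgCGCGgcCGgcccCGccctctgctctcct
ASNS: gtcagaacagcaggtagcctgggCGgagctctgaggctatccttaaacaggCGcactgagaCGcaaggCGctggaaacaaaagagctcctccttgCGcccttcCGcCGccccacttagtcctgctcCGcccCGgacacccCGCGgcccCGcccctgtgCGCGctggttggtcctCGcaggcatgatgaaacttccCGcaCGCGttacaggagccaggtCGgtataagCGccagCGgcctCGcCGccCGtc

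These windows differed in CpG content. ABCD3 held 34 CpG in 250 bases, IDI1 31, ASNS 24, GCA 15 and COMMD6 10, while CLCN3 held 5. The starts lay well inside their genes: 7.59 kb from the outer 5′ end at IDI1, 11.6 kb at COMMD6, 25.4 kb at GCA, 33.3 kb at ABCD3, 39.7 kb at CLCN3 and 56.0 kb at ASNS. The IDI1 window was covered whole by both peaks, and the fold enrichment was 4.48 (control) and 4.96 (knockdown). At COMMD6 the values were 5.31 and 4.39, and at GCA 4.39 and 4.85. The control peak of CLCN3 had 4.11-fold enrichment, that of ABCD3 4.0-fold, and the knockdown peak of ASNS 4.41-fold. Each fold is the authors' value of that peak over the local background of its own library.

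About 1 gene-body peak in 5 therefore lay on an annotated start. The windows hold none on chromosome 8, so this was counted on the other chromosomes, where 55 of 282 control members (19.5%, interval 15.0 to 24.6%) and 75 of 389 knockdown members (19.3%, interval 15.5 to 23.6%) overlapped a window. Peaks at gene ends overlapped one in 82.4% of 934 control and 82.3% of 1117 knockdown cases. Of the 130 members on a start in either list, 123 lay on a start of their own host gene, and 7 lay only on that of another gene. A further 26 control members (9.22%) and 30 knockdown members (7.71%) lay within 3 kb of an end of a noncoding gene or pseudogene. The remaining 201 control members (71.3%) and 284 knockdown members (73.0%) were near neither. Some starts are not in the promoter table, which covers 79.2% of the protein-coding genes, so the shares on a start are lower limits and those near neither are upper limits.

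The start windows under gene-body peaks resembled those at gene ends in base composition. Of 136 windows under a gene-body peak of either library, from 110 genes, 87.5% had a CpG content of at least 0.6 times that expected from their C and G. The share was 93.8% of 1862 windows under gene-end peaks and 49.0% of all 34961 windows. Of 6293 windows that also lie inside gene bodies but had no peak, 24.9% reached this level. Median GC content was 65.3% under gene-body peaks, 64.7% under gene-end peaks and 51.3% in the inner windows without a peak. These are descriptions without a test, and windows of 1 gene can overlap. Only 1.20% of 6429 inner windows had a control peak (interval 0.946 to 1.49%) and 1.65% a knockdown peak (interval 1.35 to 1.99%), against 5.59% and 6.75% of 21614 windows within 3 kb of a gene end.

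Promoter motifs were searched on both strands of the 300 bases, 9 in all, and the shares follow in the order of windows under gene-body peaks, windows under gene-end peaks, inner windows without a peak and all windows. The CCAAT box (CCAAT) was in 47.1%, 46.1%, 32.9% and 34.6%. The GC box (GGGCGG), bound by SP1-type factors, was in 63.2%, 74.0%, 27.8% and 45.0%. The TATA box (TATAAA) was in 4.41%, 3.65%, 14.0% and 11.5%, and the AP-1 motif (TGANTCA) in 2.94%, 3.06%, 10.7% and 7.68%. For CCAAT, TATA and AP-1 the gene-body windows were thus close to the gene-end windows. TATA was in only 6 and AP-1 in only 4 of the 136 gene-body windows, so these shares rest on few windows. The other 5 motifs were also each in few gene-body windows. The ETS motif (CCGGAAGT) was in 5.15%, 9.83%, 1.38% and 4.14%, the NRF1 core (GCATGCGC) in 2.21%, 7.73%, 1.37% and 3.06%, and the YY1 motif (AAGATGGCG) in 0 of 136, 3.49%, 0.477% and 1.76%. These 3 and the GC box had lower shares under gene-body than under gene-end peaks. The CREB motif (TGACGTCA) was in 3.68%, 4.99%, 1.02% and 1.85%, and the forkhead motif (TGTTTAC) in 3.68%, 2.26%, 4.29% and 3.42%. No motif contains another. A match is a stretch of letters and not a bound site.

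Gene bodies had far fewer peaks per length than gene ends. The interior of protein-coding genes, more than 3 kb from every end, came to 1146 Mb and held 2.84 control peaks per 10 Mb (interval 2.54 to 3.16) and 3.71 knockdown peaks (interval 3.36 to 4.08). The zones around gene ends came to 198 Mb and held 51.9 and 61.3 per 10 Mb. The knockdown list had 1.31 times as many gene-body peaks as the control list (interval 1.13 to 1.52), against 1.18 times at gene ends (interval 1.09 to 1.28) and 1.18 times outside genes (interval 1.06 to 1.32). These intervals overlap. With the 1935 strongest peaks of each list, the numbers were 325 and 337, a ratio of 1.04 (interval 0.888 to 1.21).

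A smaller share of gene-body peaks than of gene-end peaks was found in both lists. Of the 325 control members, 122 overlapped a knockdown peak (37.5%, interval 32.3 to 43.1%), against 53.2% of all control peaks, 64.4% of those at gene ends (interval 61.4 to 67.4%) and 42.1% of those outside genes (interval 38.1 to 46.2%). Of the 425 knockdown members, 122 overlapped a control peak (28.7%, interval 24.4 to 33.3%), against 44.0% of all knockdown peaks, 54.5% at gene ends (interval 51.6 to 57.3%) and 34.9% outside genes (interval 31.4 to 38.6%). The intervals of members and gene-end peaks do not overlap in either library, whereas those of members and peaks outside genes do. No test between classes was made, since peaks of 1 library are not independent. In all 122 pairs both peaks were members, which leaves 628 distinct places.

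The shared part was larger among members on an annotated start. In the control, 35 of 55 on a start (63.6%, interval 49.6 to 76.2%) and 76 of 227 off a start (33.5%, interval 27.4 to 40.0%) were overlapped, the latter counted without chromosome 8. In the knockdown it was 36 of 75 (48.0%, interval 36.3 to 59.8%) and 75 of 314 (23.9%, interval 19.3 to 29.0%). On a start the shares were thus near those of all gene-end peaks. Members on a start were also stronger, with a median −log10 q of 2.17 (1.70 off a start) for control peaks and 2.30 (1.83 off a start) for knockdown peaks, and the part of strength in this difference was not tested. Gene-end peaks showed such a gap too. On a start, 67.1% of 770 control and 56.5% of 919 knockdown gene-end peaks were overlapped. Off a start and without chromosome 8 it was 82 of 164 and 39.9% of 198, still above the members off a start.

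**Figure D1:**
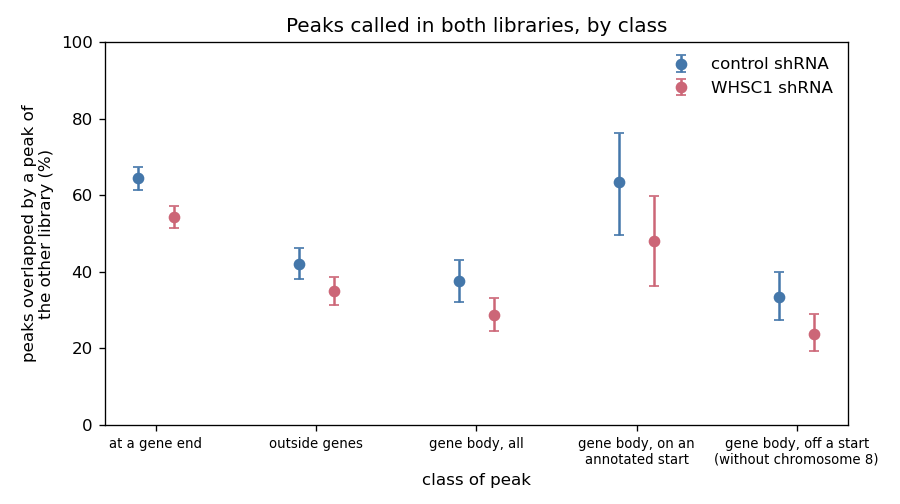
Share of peaks overlapped by a peak of the other library (y axis, %) for 5 classes of peak (x axis), with 95% exact intervals as bars and 1 point per library. Gene-body peaks on an annotated start (63.6% in the control, 48.0% in the knockdown) sit near the gene-end peaks, and those off a start (33.5% and 23.9%) lie lowest.

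Within each class of strength, the shared part was also smaller for gene-body than for gene-end peaks. Among control peaks with a −log10 q of 1 to 1.5, 18.6% of 102 members and 38.3% of 175 gene-end peaks were overlapped. Between 2 and 3 it was 52.5% of 80 and 70.0% of 303, and at 5 or more 87.5% of 8 and 96.4% of 84. The knockdown showed the same order in each class of strength, for example 7.69% of 117 against 21.8% of 179 between 1 and 1.5, and 32 of 64 against 74.4% of 289 between 3 and 5. The strongest class has too few members to tell the classes apart. Against peaks outside genes the members showed no such order. In the control 11.8% of 153 peaks outside genes were overlapped between 1 and 1.5, and 33.1% of 166 between 1.5 and 2. The members had 18.6% and 23.3% there. In the knockdown it was 9.84% of 193 outside genes between 1 and 1.5, and 37.1% of 151 between 2 and 3. The members had 7.69% and 40.4%.

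**Figure D2:**
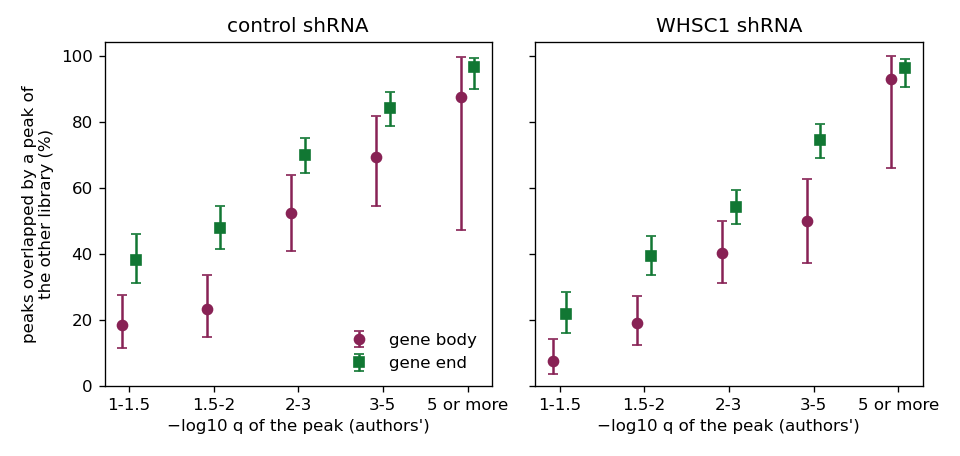
Share of peaks overlapped by a peak of the other library (y axis, %) by the authors' −log10 q (x axis), for gene-body peaks (circles) and gene-end peaks (squares) in the control (left) and knockdown (right), with 95% exact intervals as bars. Gene-body peaks lie below gene-end peaks in all 5 classes of both panels, from 18.6% against 38.3% in the weakest control class.

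Gene-body peaks were mostly narrower and weaker than gene-end peaks. Median width was 311 bp in the control and 315 bp in the knockdown, against 386.5 and 391 bp at gene ends. Fold enrichment ran from 2.87 to 5.44 in the control with a median of 3.52, and from 2.60 to 5.19 in the knockdown with a median of 3.39. Gene-end peaks had medians of 3.63 and 3.50. A fold of at least 4 was reached by 46 control members (14.2%) and 48 knockdown members (11.3%), against 20.8% of all control and 16.8% of all knockdown peaks. Of these stronger members, 33 of 46 (71.7%) and 27 of 48 (56.3%) had a partner in the other list, against 81.8% of all 402 control and 75.4% of all 390 knockdown peaks at this fold. The exact intervals of the members were 56.5 to 84.0% and 41.2 to 70.5%.

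The strongest control members lay in genes of varied function. ALPK2, an alpha-kinase, had the highest fold of the control list, 5.44, 68.6 kb from a gene end (chromosome 18, 58549886 to 58550253). The knockdown peak at this place had 3.52-fold enrichment, and the ratio of 0.646 was the lowest of the 122 gene-body pairs. TMTC2, an endoplasmic reticulum protein of O-mannosylation, had a peak 203 kb from any gene end with a fold of 4.92 (control) and 4.42 (knockdown). CNST, a connexin trafficking factor, had 4.81-fold and 4.13-fold, TMEM150C 4.67-fold and 3.40-fold, and MTHFD2L, a mitochondrial folate enzyme, 4.55-fold and 3.90-fold. The MTHFD2L peak lay on an inner start, as did that of COMMD6. Like ALPK2, these 5 shared genes had the higher value in the control, which is partly how they were picked.

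The strongest knockdown members were OR6J1, an olfactory receptor gene, with 5.19-fold enrichment over a peak of 1402 bp, and KLHL31, a BTB-kelch protein gene, with 5.06-fold. The control peaks there had 4.27-fold and 4.18-fold enrichment. SLC39A10, a zinc importer, had 4.86-fold in the knockdown and 4.23-fold in the control on an inner start (chromosome 2, 195656825 to 195657294 in the knockdown), with the highest −log10 q of all members, 8.16. AGBL1, a tubulin carboxypeptidase gene, had 4.84-fold and 3.98-fold. IDI1 and GCA, whose start sequences are printed above, completed the shared ones among the 8 strongest. Here the knockdown value was the higher in each pair, again partly by the choice.

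At a −log10 q of 5 or more there were 8 control and 14 knockdown members, and 1 of each lacked a peak in the other list. Of all peaks this strong, 96.8% of 158 control and 93.0% of 199 knockdown peaks were shared, and 8 and 14 members are too few to tell a difference from these shares. In the control this was DECR1, the mitochondrial dienoyl-CoA reductase of fatty acid oxidation, with 4.58-fold enrichment (chromosome 8, 90036868 to 90037184, −log10 q 5.83). In the knockdown it was DDX11, a DNA helicase gene, with 4.76-fold (chromosome 12, 31078606 to 31078831, −log10 q 5.10). DDX11 has near-identical copies elsewhere, so reads there can be misplaced and its value is uncertain. Among the 8 strongest by fold, DAB1, an adaptor of Reelin signalling, was called in the control only (4.63-fold), and ELAPOR2 in the knockdown only (4.64-fold).

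Over the 122 places called in both, enrichment was close in the 2 libraries. The knockdown value over the control value had a median of 0.978, with quartiles of 0.894 and 1.07, and ran from 0.646 to 1.33. It was above 1 in 54 pairs (44.3%), against 42.5% of 661 gene-end pairs, whose median was 0.974. In 12 of the 122 pairs the values differed by more than 25% of the lower one. This was so in 70 of 661 gene-end pairs and 109 of all 1029 pairs, a similar share. At the low end beside ALPK2 stood NOX4, an NADPH oxidase gene (control 4.49-fold, knockdown 3.13-fold), and at the high end PLCXD3 (3.42-fold and 4.53-fold) and SLCO1C1, a thyroid hormone transporter gene (3.55-fold and 4.56-fold), the last 3 picked after their values were seen. No scaling was made between the libraries, and with 1 library each the size of a replicate difference is unknown.

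**Figure D3:**
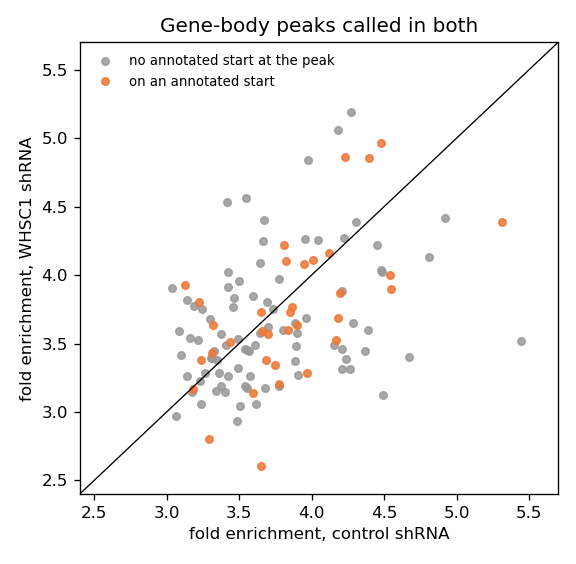
Fold enrichment in the control (x axis) and knockdown (y axis) of the 122 gene-body peaks called in both libraries, 1 point per pair, with the line of equal values. Points on an annotated start (35 pairs, orange) spread around the line like the others, and ALPK2 lies farthest to the right at 5.44 against 3.52.

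The members lay in 537 host genes. A gene-body peak was called in both libraries in 147 of them (27.4%), in the control alone in 153 and in the knockdown alone in 237. In 122 of the 147 a peak of 1 library overlapped one of the other, and in 25 the 2 libraries had peaks at different places of the gene. Only 6 control and 5 knockdown members lay in more than 1 protein-coding gene. Of 16112 genes with any interior, 1.86% held a control member and 2.38% a knockdown member. A larger share of host genes than of other genes had a peak at their own ends: 51 of 300 control hosts (17.0%, interval 12.9 to 21.7%) against 7.08% of genes without a member, and 61 of 384 knockdown hosts (15.9%, interval 12.4 to 19.9%) against 8.49%. Over all 16112 genes the shares with an end peak were 7.27% and 8.67%.

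Host genes were long, with a median of 179.6 kb against 34.9 kb for all genes with an interior. The share of genes with a member was higher in longer genes, in the control from 0.274% of 7287 genes up to 30 kb, over 4.26% of 2580 genes of 100 to 300 kb, to 34.8% of 69 genes over 1000 kb. In the knockdown these shares were 0.371%, 5.43% and 40.6%. The number of peaks per length changed little. It was 3.01 control peaks per 10 Mb of interior in the shortest class (interval 1.86 to 4.6), 2.47 between 30 and 100 kb (interval 1.91 to 3.15) and 3.37 in the longest (interval 2.30 to 4.75). The knockdown had 3.87, 3.49 and 4.42 in the same classes, and the intervals of all 5 classes overlap within each library.

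**Figure D4:**
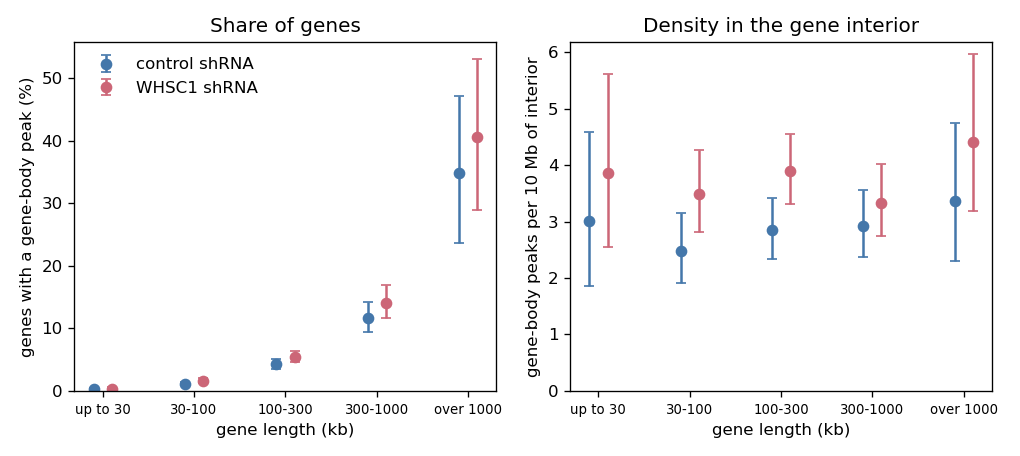
Share of genes with a gene-body peak (left, %) and gene-body peaks per 10 Mb of gene interior (right) in 5 classes of gene length (x axes, kb), with 95% exact intervals as bars and 1 point per library. The share climbs to 34.8% in the control and 40.6% in the knockdown for genes over 1000 kb, while the density stays between 2.47 and 4.42.

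The share of members on an annotated start was lowest in the longest hosts, and over the classes of length it was lower at each step in the knockdown but not in the control. In hosts of up to 30 kb, 8 of 20 control members (40.0%) and 9 of 26 knockdown members (34.6%) lay on an annotated start. It was 20.3% of 59 and 29.8% of 84 between 30 and 100 kb, 29.0% of 100 and 20.7% of 145 between 100 and 300 kb, and 6.41% of 78 and 8.91% of 101 between 300 and 1000 kb. In hosts over 1000 kb it was 1 of 25 (4.0%) and 2 of 33 (6.06%). These shares were counted off chromosome 8. The share overlapped by the other library was 10 of 20 in the shortest hosts and 8 of 32 in the longest in the control, and 38.5% of 26 and 19.0% of 42 in the knockdown, with overlapping intervals. The longest hosts were RBFOX1, a neuronal splicing regulator of 2474 kb, and CNTNAP2, a neurexin-family adhesion gene of 2304 kb, each with 1 control peak (3.56-fold and 3.74-fold), and PTPRD, a receptor phosphatase gene of 2299 kb, with 1 knockdown peak (3.20-fold). The shortest were ARLN, which encodes a small membrane protein acting on the calcium pump (8.03 kb, 3.69-fold on an inner start), the collagenase gene MMP1 (8.24 kb, 3.39-fold) and ARRDC1, an arrestin-domain gene (9.68 kb, 3.59-fold), each with 1 knockdown peak.

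Most host genes had a single member. In the control 276 genes had 1, 18 had 2, 5 had 3 and 1 had 4, and in the knockdown 344 had 1, 36 had 2, 3 had 3 and 1 had 5. Genes with 2 or more had a median length of 558.5 kb in the control and 317.4 kb in the knockdown, against 170.4 and 178.5 kb for genes with 1. Within a gene the gaps between neighbouring members had a median of 182.0 kb in the control and 113.7 kb in the knockdown, and 5 gaps in each were under 10 kb. Members in genes with several peaks were shared in 15 of 55 cases in the control (27.3%, interval 16.1 to 41.0%) and 17 of 86 in the knockdown (19.8%, interval 12.0 to 29.8%). For the only member of a gene the shares were 39.6% of 270 and 31.0% of 339. The members in genes with several were also weaker, with a median −log10 q of 1.54 (1.85 for only members) among control and 1.67 (1.97) among knockdown peaks, and the part of strength in the difference was not tested.

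Among the genes with most members, some shared every place and others none. CSMD3, a large membrane protein gene of 1214 kb on chromosome 8, had 4 control peaks (2.88, 3.01, 3.07 and 3.59-fold) and 5 knockdown peaks (2.98, 3.01, 3.15, 3.21 and 3.25-fold), and none of the 9 overlapped a peak of the other library. LINGO2, a neuronal leucine-rich repeat gene, with 3 and 2 peaks, and PCDH15, a protocadherin of sensory hair cells, also with 3 and 2, had no shared peak either. In contrast, AMOTL1, an angiomotin-family gene of 170.3 kb, had 2 peaks in each library and both places were shared. Its stronger place had a fold of 4.48 (control) and 4.04 (knockdown), and its weaker one, 7.31 kb away in the control, 3.36-fold and 3.28-fold.

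ESRRG, an orphan nuclear receptor gene, had 3 control and 2 knockdown peaks. The 2 shared places had 3.61-fold and 3.16-fold enrichment in the control and 3.49-fold and 3.54-fold in the knockdown. Its other control peak lay on an inner start and was the weakest (3.09-fold, −log10 q 1.02). SNTG1, a syntrophin gene, had 3 control peaks and 1 knockdown peak, of which 1 place was shared (3.30-fold and 3.68-fold). The peaks of CSMD3, LINGO2 and PCDH15 were weak, with a −log10 q between 1.12 and 2.78, whereas the stronger shared place of AMOTL1 had 4.18 and 4.12.

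**Figure D5:**
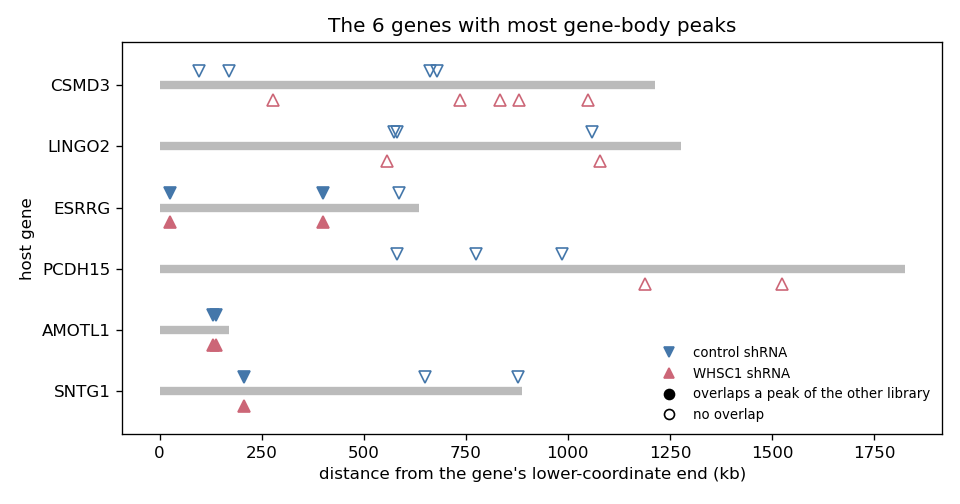
Positions of gene-body peaks along the 6 genes with most of them over both lists, ties taken by higher fold (x axis, kb from the gene's lower-coordinate end, with the gene as a grey bar). Downward triangles are control peaks, upward triangles knockdown peaks, and filled ones overlap a peak of the other library: both places of AMOTL1 are filled in both libraries, and all 9 triangles of CSMD3 are open.

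Along the gene, somewhat over 1 in 2 members lay on the 5′ side. Where the promoter table gave the strand and there was 1 host, 127 of 235 control members (54.0%) and 193 of 344 knockdown members (56.1%) were nearer the 5′ end. These shares were not given an interval or tested against an even split. The fifth of the gene next to the 5′ end held 54 control members (23%, interval 17.8 to 28.9%) and 88 knockdown members (25.6%, interval 21.1 to 30.5%), and the fifth next to the 3′ end 37 (15.7%, interval 11.3 to 21.0%) and 48 (14.0%, interval 10.5 to 18.1%). Members on annotated starts numbered 17 and 24 in the former and 4 and 7 in the latter. In the control 30 of the 54 members next to the 5′ end were shared (55.6%) and 15 of the 37 next to the 3′ end (40.5%), and in the knockdown 34.1% and 31.3%.

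The median distance to the nearest protein-coding end was 38.9 kb in the control and 38.6 kb in the knockdown. Within 10 kb lay 62 control members (19.1%) and 86 knockdown members (20.2%), and beyond 100 kb 84 (25.8%) and 103 (24.2%). The share overlapped by the other library was 48.4% within 10 kb (interval 35.5 to 61.4%) and 29.8% beyond 100 kb (interval 20.3 to 40.7%) in the control, and 34.9% (interval 24.9 to 45.9%) and 24.3% (interval 16.4 to 33.7%) in the knockdown. The member closest to the 3 kb limit was in ARRDC1 (3037 bp), in the knockdown. Just outside it were peaks in SEMA3C, a secreted semaphorin gene (2964 bp, 3.22-fold, control), and RNF144B, a ubiquitin ligase gene (2901 bp, 3.18-fold, knockdown). None of these 3 was shared.

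Gene lists were compared by how many of their genes with an interior held a member, beside 1.86% (control) and 2.38% (knockdown) of all genes. These lists were drawn up with earlier results of these data known and were not tested, and their genes differ in length. Of 45 long neural adhesion and synaptic genes, 19 held a control member and 16 a knockdown member, 10 of them both. Their median length was 1118 kb, and per 10 Mb of interior they had 4.97 control and 4.59 knockdown peaks, against 2.83 and 3.68 over all genes. Genes over 1000 kb had 3.37 and 4.42. Of the list's 26 control and 24 knockdown peaks, 4 and 5 were in CSMD3 on chromosome 8, a chromosome dense in members. The list genes SNTG1 (3 control peaks, 1 knockdown peak), CSMD1 (1 and 1) and NRG1 (1 and 1) also lie on chromosome 8. The parts of length and chromosome were not tested. Within this list SORCS3, a neuronal sorting receptor gene, had the highest fold (3.96 in the control, 4.26 in the knockdown, at 1 shared place), followed by CTNNA2, a neural alpha-catenin gene. CTNNA2 had 1 shared place (3.42 and 3.91) and another peak in the knockdown alone (4.01). DPP6, a potassium channel subunit gene, had 1 shared place (3.89 and 3.65), and GRM7, a glutamate receptor gene, 2 knockdown peaks of up to 3.71-fold. CNTNAP2, given above, was also among the 5 strongest.

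Of 30 genes at common fragile sites, regions prone to breakage that mostly lie in very long genes, 4 held a control member and 8 a knockdown member. They had 5 and 13 peaks, or 1.56 and 4.06 per 10 Mb of interior, against 2.83 and 3.68 over all genes. Their median length was 910 kb, and genes over 1000 kb had 3.37 and 4.42. No interval was made for this list, the counts are small, and the difference between the libraries was not tested. DAB1, given above, was the strongest in the control. TPRG1 had a shared place (3.08-fold and 3.59-fold) and a second knockdown peak (3.01-fold), THSD7A 2 knockdown peaks of up to 3.55-fold, and GPC6, a glypican gene, a shared place (3.31-fold and 3.40-fold). FHIT, a classical fragile-site gene named after its values were seen, had 2 peaks in the knockdown (up to 3.26-fold) and none in the control.

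Of 53 histone methylation and chromatin remodelling genes, 3 held a control member and 4 a knockdown member. CHD2, a chromatin remodeller, had a shared peak (control 4.21-fold, knockdown 3.46-fold) near a noncoding gene end. KDM4C, a histone lysine demethylase gene, had one on an inner start (3.31-fold and 3.43-fold). KMT2C, which encodes a histone methyltransferase of enhancers, was called in the knockdown only (2 peaks of 2.67-fold and 2.72-fold), and HDAC9, a histone deacetylase gene, in the control only (3.39-fold). Of 50 DNA repair and cell cycle genes, CDK14, a cyclin-dependent kinase gene (4.29-fold and 3.65-fold), and STAG1, a cohesin subunit gene (3.77-fold and 3.19-fold), had members in both libraries and CDK19, a Mediator kinase gene, in the knockdown only (3.36-fold).

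Of 24 androgen-regulated and luminal prostate genes, 1 held a control member and 2 a knockdown member. ZBTB16, which encodes the zinc finger repressor PLZF, had a shared peak 77.1 kb from a gene end with a fold of 4.49 (control) and 4.02 (knockdown) (chromosome 11, 114179282 to 114179621 in the control), and a second knockdown peak (2.95-fold). STEAP1, a prostate metalloreductase-family gene, had a knockdown peak 3.59 kb inside its 5′ end (3.94-fold, −log10 q 3.09). Of 55 MAP kinase, PI3K and small GTPase genes, ARHGAP26 (3.25-fold) and the receptor kinase MET (3.17-fold) had a control peak and VAV3, an exchange factor, a knockdown peak (3.73-fold).

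None of 47 antigen presentation, interferon and cytokine genes held a member in either library, nor did any of 17 leukocyte markers. The interiors of the first list came to 1.97 Mb and those of the second to 1.13 Mb. At the density over all genes either length would hold fewer than 1 peak, so the absence of members tells nothing about these lists. Of 22 stromal, endothelial, basal and neuroendocrine markers, the synaptic vesicle gene SYP had a control peak (4.02-fold, 3234 bp from a gene end). With so few markers holding a member in any list, these peaks give no check of the cell type.

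Members were uneven over chromosomes. Chromosome 8 had the most per 10 Mb of interior in the control, 7.90 (43 peaks, interval 5.71 to 10.6), and 6.61 in the knockdown (36 peaks, interval 4.63 to 9.15). Chromosome 5 followed in the control with 4.5 (29 peaks, interval 3.01 to 6.46) and had the highest knockdown value, 6.67 (43 peaks, interval 4.83 to 8.98). On chromosome 2 the values were 1.77 (17 peaks) and 1.98 (19 peaks), and on chromosome 17 0.266 (1 peak) and 1.33 (5 peaks). Chromosomes 19, 21 and 22 had no member in either library, and for chromosome 19 the exact interval reaches 1.56 per 10 Mb, and X had 1 in each. Copy number of the line was not given in the sources used here, and its part in these densities was not tested. Without chromosome 8 the ratio of knockdown to control members was 1.38 (interval 1.18 to 1.61).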

How the data were processed

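Each library's peaks were deposited as a separate broad-peak list, 1 per group. Whether cells or runs were pooled within a group is not known here. Tools named in the submitters' processing notes are MACS2 (without a version), Bowtie2 2.2.9, Picard 1.101, SAMtools 1.9, ChIPseeker 1.22.1 and CASAVA 1.8.2, with the build GRCh38. What each did, the transposase shift and duplicate removal are not stated there. All of them bear on how many peaks are called, how wide and where. For each peak the authors deposited a fold enrichment (a ratio over local background in that library), the −log10 of a p-value and the −log10 of a q-value. The smallest −log10 q was 1.01 among control and 1.02 among knockdown peaks. The deposited score equals 10 times the −log10 q, truncated, in all 4428 peaks.

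Groups came from the condition label. Members and lists were chosen with earlier results of these data known. Genes were the 19970 protein-coding RefSeq genes on chromosomes 1 to 22 and X, and 373 of 374 listed genes matched by symbol. Shared peaks overlap by at least 1 bp. Densities are peaks per Mb of gene interior with exact Poisson intervals. Named genes were the 8 strongest members per library, the 6 genes with most members, hosts of unshared members with −log10 q of at least 5, the 3 longest and 3 shortest hosts, up to 5 hosts per list, NSD2 and the 4 peaks nearest the 3 kb limit. Some genes that this rule names are not reported here. Alternatives were other distances and q limits, ends of all RefSeq genes, equal list sizes, other overlaps, merging within 1 kb and other host rules. Tested on simulated data, 300 of 300 planted gene-body peaks, 300 of 300 gene-end peaks and 300 of 300 overlaps were recovered. Scripts ran in Python 3.11.15 with scipy 1.17.1, pandas 2.3.3, matplotlib 3.10.9 and numpy 2.4.6.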

Additional observations from a re-analysis of the deposited data

How the results depend on the processing

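Of 98 values over 13 alternatives (2 of them added after the data were seen), 70 stayed within the counting interval of the main value, or within 1.5 times a main count, and 28 moved. A reversal was defined only for the ratio of knockdown to control members, and that ratio never reversed. Distances of 1 and 10 kb and the ends of all RefSeq genes moved only the median host length, to 229.5 kb at 10 kb. With both lists limited to a −log10 q of 2 or more, there were 137 control and 192 knockdown members in 258 host genes, 47.4% and 33.9% were shared, the median folds were 3.82 and 3.69, and 2 and 6 genes had several. With both limited to 5 or more, so that a partner must pass too, there were 8 and 14 members (ratio 1.75) in 19 host genes, of which 15.8% were hosts in both, 21.4% of knockdown members were shared, the median folds were 4.54 and 4.65, the median host length was 102.1 kb, and 0 genes in either library had several. With equal numbers of peaks the ratio of members was 1.04, 33.8% of knockdown members were shared, their median fold was 3.48, and 20 knockdown genes had several. An overlap of 50% of both peaks left 29.8% and 22.8% shared. Without members on an annotated start and without chromosome 8, 23.9% of knockdown members were shared (28.5% without chromosome 8 alone). Merging within 1 kb changed none of these counts. No paired analysis was possible because each group has 1 library, and for the same reason none could be left out. With read depth unknown, single-library calls near the threshold cannot be told from differences in depth.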
